A study of Mus musculus with 10 samples.

Results

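Fibronectin and the matricellular proteins were followed through 9 genes: Fn1, Postn, Tnc, Tnxb, Thbs1, Thbs2, Thbs4, Sparc and Sparcl1. Every probe set whose platform annotation gave exactly 1 symbol, and that symbol among these 9, was a member, which gave 16 probe sets of 45101 on the array, for 9 of 18193 named genes. A further probe set that lists Thbs1 together with another gene was left out. RNA came from epididymal white adipose tissue, the fat pad beside the epididymis, of male C57BL/6J mice that were 8 weeks old when the diets began. The high-fat diet group received food with 60% fat for 8 weeks, and the chow group received normal chow (CRF-1) for the same 8 weeks. There were 5 mice on each diet, every one with its own Affymetrix array, and the errors below are therefore those between animals. All mice were of 1 inbred strain and 1 sex, which limits what the groups stand for.

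Fibronectin is a large glycoprotein that cells assemble into fibrils through integrins, and these fibrils serve as a scaffold on which collagen is laid down. Matricellular proteins are secreted into the same matrix but act mainly as regulators: they bind collagen, growth factors and cell surface receptors and change how cells attach, migrate and remodel tissue. In fat, an expanding depot has to loosen and rebuild the matrix around each adipocyte, and the genes of this family are made mostly by stromal cells, vessels and adipocytes.

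By their brightest probe sets, Fn1, Tnc and Tnxb rose on the high-fat diet, and Postn and Sparc lay higher in all 5 high-fat arrays without passing the threshold. Thbs1, Thbs2, Thbs4 and Sparcl1 did not pass it. Of the 16 probe sets, 3 passed an adjusted p of 0.05 and all 3 were higher on the high-fat diet, where 9.89% of all 45037 probe sets tested were called higher and 8.00% lower. The members are brighter than most probe sets: 13 of the 16 had a mean above the median of all, and of all probe sets above that median 28.7% changed in either direction, so 3 calls are no more than the array's background. The groups did not overlap for 6 of the 16, among them 2 of Sparc, against 16.7% of all probe sets. That share was not worked out for bright probe sets alone, so no excess is read from it. For each of these 6 member probe sets the 2-sided exact permutation p was 0.00794, the smallest that 5 arrays against 5 allow. It carries no adjustment for the number of probe sets. The mean was higher on the high-fat diet for 14 of the 16. All levels below are log2 intensities after quantile normalization, all differences are the high-fat diet minus chow, and adjusted p-values are limma's with Benjamini-Hochberg adjustment over all probe sets. Levels are compared between arrays for the same probe set only, since probe sets differ in how strongly they bind.

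**Figure D1:**
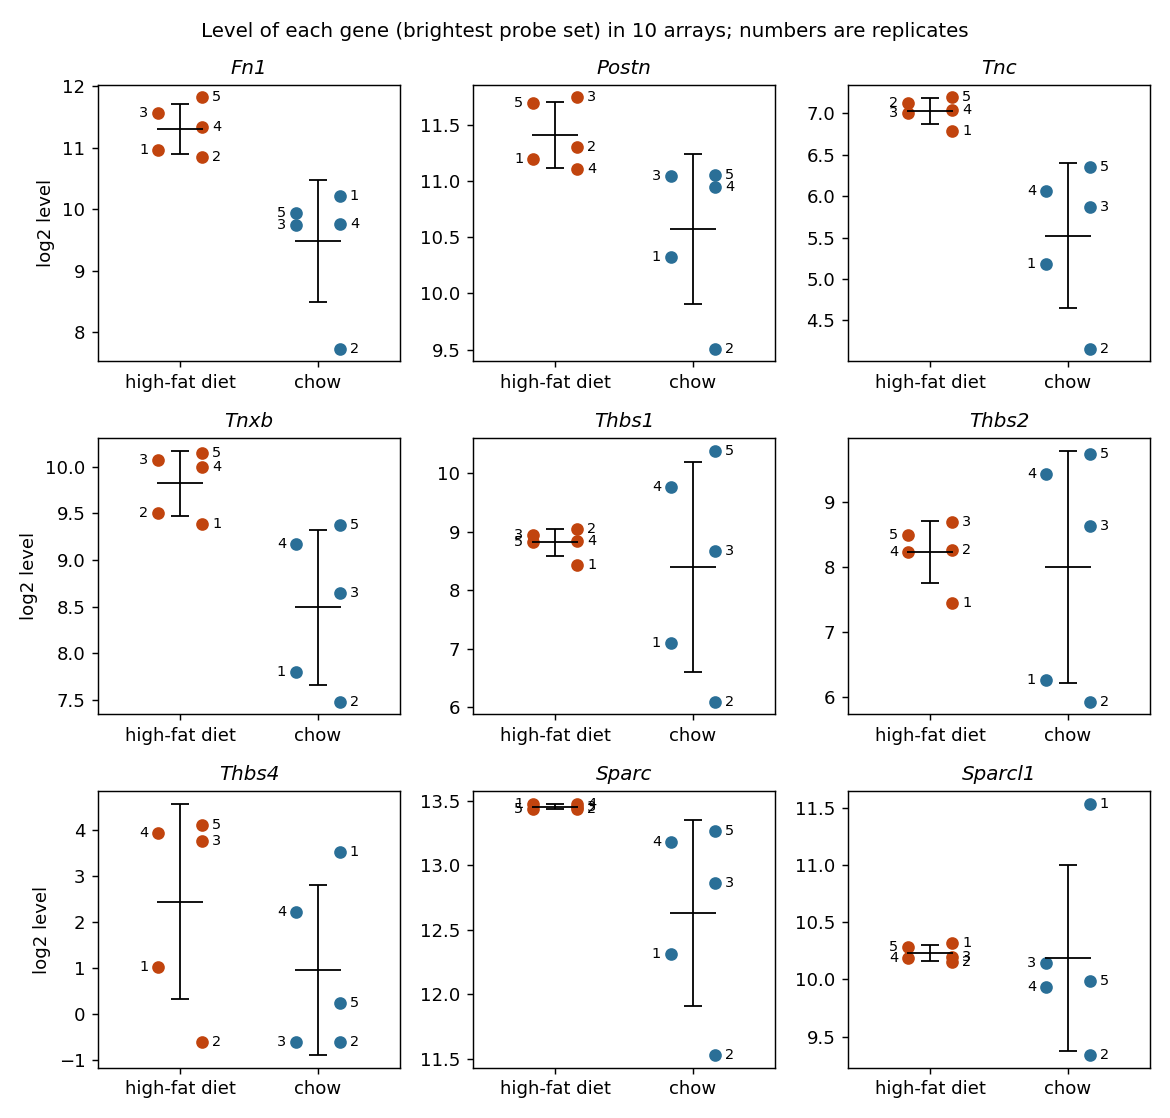
Log2 level of the brightest probe set of each of the 9 genes (vertical axis) in the 5 high-fat diet arrays (left of each panel) and the 5 chow arrays (right). Each point is an array with its replicate number, the long bar is the mean and the whiskers are ± 1 SD. For Fn1, Postn, Tnc, Tnxb and Sparc every high-fat array lies above every chow array, while for Thbs1 and Thbs2 the chow arrays spread on both sides of the high-fat ones.

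The arrays of the chow group differed from each other far more than those of the high-fat group, and they carried transcripts of neighbouring tissue. Adipoq, the adiponectin gene that defines adipocytes, averaged 13.15 on the high-fat diet and 12.93 on chow, so the defining marker of the labelled tissue was present at a high level in both. The mean of 9 epididymis and testis genes ran from 3.81 to 5.27 in the high-fat arrays and 7.25 to 11.75 in the chow arrays. Chow arrays 1 and 2 had the lowest means of all 10 arrays for the adipocyte list (11.53 to 11.99 in high-fat arrays, 11.42 and 10.04 in these) and the endothelial list (8.13 to 8.69 in high-fat arrays, 7.89 and 7.03 in these). The ratio of 5' to 3' signal of the actin control, a measure of RNA integrity and labelling, was 0.614 ± 0.0380 on the high-fat diet and 0.341 ± 0.0731 on chow (SD, n = 5 each). It was 0.456, 0.368, 0.272, 0.301 and 0.307 in chow arrays 1 to 5. The fits below without chow arrays 1 and 2 therefore leave out the highest chow ratios. The same ratio of the Gapdh control was 1.05 ± 0.0265 on the high-fat diet and 0.726 ± 0.123 on chow. The part of these differences in the results below was not tested beyond the values given.

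**Figure D2:**
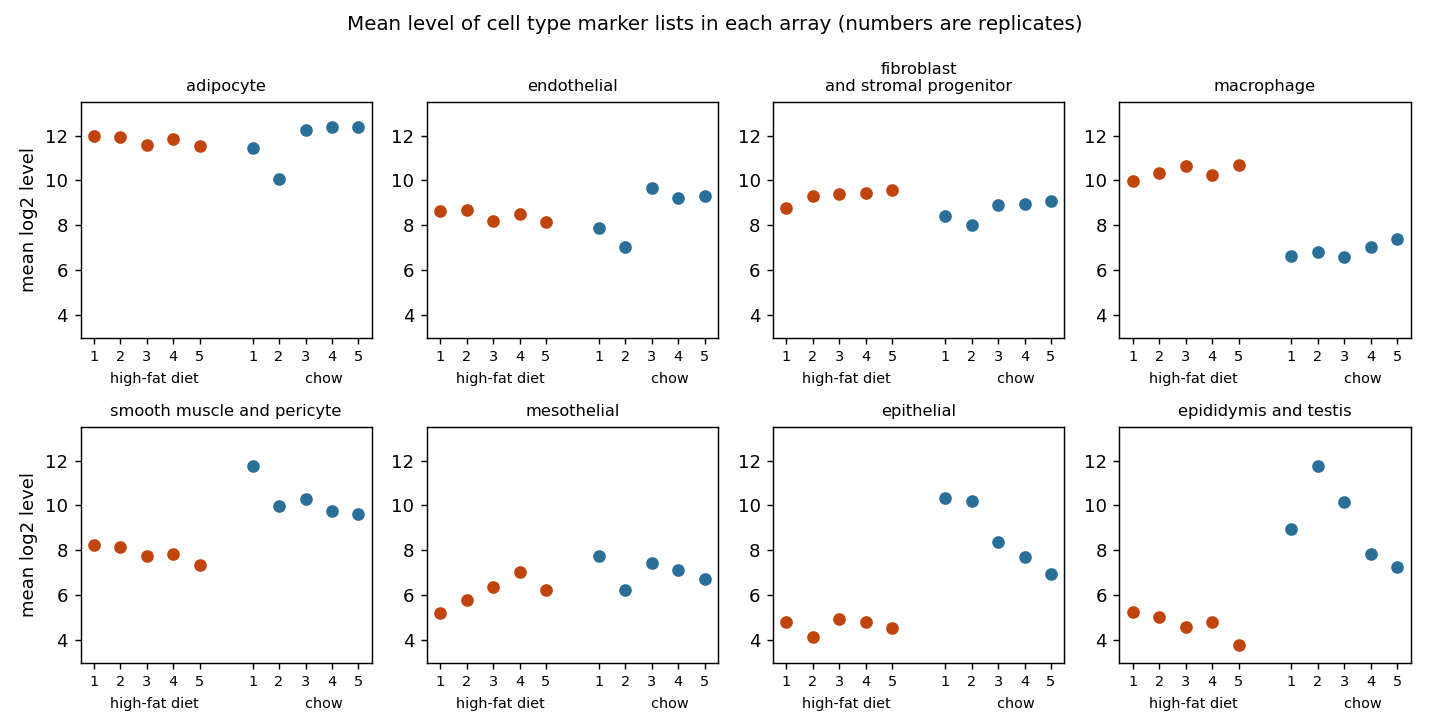
Mean log2 level (vertical axis, not starting at 0) of 8 lists of cell type markers in each array, with the 5 high-fat diet arrays on the left of each panel and the 5 chow arrays on the right. Adipocyte and endothelial means are lowest in chow arrays 1 and 2, and epithelial and epididymis and testis means are higher in every chow array than in any high-fat array.

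Promoters of 6 of the 9 genes were found in the RefSeq table (build GRCm38.p6), in 8 windows, cut here to the 250 bases before each annotated start. Those of Tnc, Sparc and Thbs2 are shown because these genes stand for the 3 patterns of the results: a rise, a higher level short of the threshold, and a level that varied among the chow mice. Each runs 5' to 3' on the gene's own strand, which is the minus strand for all 3, with capitals on matches to the motifs searched. Tnc is chr4:64047016-64047265, Sparc is chr11:55420081-55420330 and Thbs2 is chr17:14694263-14694512.
Tnc: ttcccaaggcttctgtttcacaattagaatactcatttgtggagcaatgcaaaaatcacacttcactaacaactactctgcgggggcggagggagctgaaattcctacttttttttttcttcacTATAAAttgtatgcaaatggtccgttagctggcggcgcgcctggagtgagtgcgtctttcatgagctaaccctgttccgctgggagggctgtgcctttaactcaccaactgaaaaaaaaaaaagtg
Sparc: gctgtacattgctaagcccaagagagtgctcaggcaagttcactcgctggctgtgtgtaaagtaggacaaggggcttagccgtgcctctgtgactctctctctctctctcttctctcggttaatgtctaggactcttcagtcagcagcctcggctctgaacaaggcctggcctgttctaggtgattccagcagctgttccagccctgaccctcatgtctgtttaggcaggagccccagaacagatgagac
Thbs2: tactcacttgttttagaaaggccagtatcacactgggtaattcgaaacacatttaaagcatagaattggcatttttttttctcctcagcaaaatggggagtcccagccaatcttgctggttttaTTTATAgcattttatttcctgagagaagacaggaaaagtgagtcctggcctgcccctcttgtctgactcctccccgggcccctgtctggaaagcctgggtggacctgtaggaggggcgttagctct
The motifs were searched on both strands: the TATA box (TATAAA), the AP-1 site (TGANTCA), the TEAD site (GGAATG), the CAGA element of Smad proteins (AGCCAGACA) and the CArG box. The capitals in Tnc and Thbs2 are TATA box letters, at 126 bases before the start in both, on opposite strands, and the Sparc window held no match to any of the 5 motifs. TATA box letters stood in 12.4% of the 32851 windows of that length in the table, AP-1 letters in 6.75%, TEAD letters in 12.6%, the CAGA element in 0.301% and the CArG box in 1.47%. Of the other windows, that of Tnxb, which starts inside the annotated gene, held an AP-1 match 55 bases before its start. That of Thbs4 held 2 overlapping TEAD matches. A second Tnc window, for a start inside the annotated gene, held the same TATA box letters 205 bases before that start. In 1 of 2 Postn windows, also for a start inside the annotated gene, a TATA box stood 26 bases before the start.

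Fn1, which encodes fibronectin, showed the largest rise among the brightest probe sets that passed. Its brightest probe set had levels of 10.97, 10.85, 11.56, 11.33 and 11.82 in high-fat arrays 1 to 5, against 10.22, 7.74, 9.75, 9.76 and 9.94 in chow arrays 1 to 5. Every high-fat array lay above every chow array, and chow array 2 lay far below the other chow arrays. The difference was 1.82 (SE 0.41, adjusted p = 0.0101), or 3.54-fold, with means of 11.31 ± 0.40 on the high-fat diet and 9.48 ± 0.995 on chow (SD, n = 5 each). In the authors' deposited intensities, before any normalization here, the same probe set ran from 2056 to 3968 on the high-fat diet and from 206.7 to 995.2 on chow. Without chow arrays 1 and 2, the highest and the lowest chow array here, the difference was 1.49 (SE 0.20, adjusted p = 0.000322). Chow arrays 3, 4 and 5, kept in that fit, had epididymis and testis means of 10.15, 7.84 and 7.25. In the high-fat arrays that mean was at most 5.27, and its part in the Fn1 difference was not tested. The other Fn1 probe set was dimmer, with means of 5.66 ± 0.30 on the high-fat diet and 4.74 ± 1.41 on chow. Its groups overlapped, and its difference of 0.92 did not pass (SE 0.57, adjusted p = 0.308), nor did the 0.29 found without chow arrays 1 and 2 (adjusted p = 0.405). The mean of 8 macrophage markers, all of which rose, ran from 9.98 to 10.70 on the high-fat diet and from 6.60 to 7.41 on chow, and the part of macrophages in the Fn1 signal was not tested. In bulk tissue, more RNA per cell and more cells of a type cannot be told apart.

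The tenascins Tnc and Tnxb both rose. Tnc encodes tenascin-C, a glycoprotein that appears in wounds and inflamed tissue and can activate the receptor TLR4. Its brightest probe set had levels of 6.78, 7.12, 6.997, 7.04 and 7.19 in high-fat arrays 1 to 5, against 5.18, 4.16, 5.86, 6.06 and 6.35 in chow arrays 1 to 5. The high-fat arrays lay within 0.40 of each other, while the chow arrays spread over 2.19 and all lay lower. The difference was 1.505 (SE 0.35, adjusted p = 0.0126), or 2.84-fold. It was 0.94 (SE 0.14, adjusted p = 0.000762) without chow arrays 1 and 2. The deposited intensities of this probe set were low, 116.9 to 163.4 on the high-fat diet and 19.1 to 76.8 on chow. A second, still dimmer Tnc probe set differed by 1.71 and did not pass (SE 0.76, adjusted p = 0.154), with high-fat array 5 at -0.21 and the other high-fat arrays between 2.89 and 3.40.

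Tnxb encodes tenascin-X, which binds collagen fibrils and whose loss in humans causes a form of Ehlers-Danlos syndrome with lax skin and joints. Its only probe set had levels of 9.38, 9.51, 10.07, 10.002 and 10.15 in high-fat arrays 1 to 5, against 7.81, 7.48, 8.65, 9.17 and 9.38 in chow arrays 1 to 5. The groups met without overlapping: high-fat array 1 and chow array 5 were nearly level. The difference was 1.33 (SE 0.35, adjusted p = 0.0218), or 2.51-fold. It was 0.76 (SE 0.21, adjusted p = 0.0218) without chow arrays 1 and 2. Leaving out any of high-fat arrays 3, 4 or 5 brought the adjusted p just over the threshold, to 0.0567, 0.0554 and 0.0583 with differences of 1.26, 1.28 and 1.24.

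For Postn and the bright Sparc probe sets every high-fat array lay above every chow array, but the adjusted p did not pass the threshold. Postn encodes periostin, which binds collagen and fibronectin and is made by activated fibroblasts. Its probe set had levels of 11.19, 11.30, 11.74, 11.10 and 11.70 in high-fat arrays 1 to 5, against 10.32, 9.51, 11.04, 10.94 and 11.05 in chow arrays 1 to 5. The lowest high-fat array and the 3 highest chow arrays lay close together, and chow arrays 1 and 2 lay well below. The difference was 0.83 (SE 0.29, adjusted p = 0.0672), or 0.39 (SE 0.15, adjusted p = 0.0837) without chow arrays 1 and 2.

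Sparc encodes osteonectin, a collagen-binding protein, and mice that lack it accumulate more fat. Its brightest probe set had levels of 13.48, 13.43, 13.45, 13.48 and 13.43 in high-fat arrays 1 to 5, against 12.31, 11.53, 12.87, 13.18 and 13.26 in chow arrays 1 to 5. After quantile normalization the high-fat arrays had a range of only 0.0430, and the chow arrays approached them from below. That step gives the same level to the same rank, so high-fat arrays 1 and 4 shared 13.4751 and arrays 2 and 5 shared 13.4322. The small range is therefore partly set by the normalization and does not measure how alike the mice were. The deposited intensities of this probe set ran from 11212 to 12322 on the high-fat diet, where the highest intensity of any probe set on those arrays was 12170 to 13911, so the signal was near the top of the measured range and a further rise may not register. The difference was 0.83 (SE 0.29, adjusted p = 0.0705). The second bright Sparc probe set differed by 0.90 (SE 0.30, adjusted p = 0.0573), and the remaining, dim one by 1.08 (SE 0.53, adjusted p = 0.1998). For the dim one the groups overlapped. Both bright probe sets passed without chow arrays 1 and 2, at smaller differences, 0.35 (adjusted p = 0.0375) and 0.42 (adjusted p = 0.0366).

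Sparcl1, the closest relative of Sparc, encodes hevin and did not share the higher level. Its probe set had levels of 10.31, 10.15, 10.20, 10.19 and 10.29 in high-fat arrays 1 to 5, against 11.53, 9.34, 10.14, 9.93 and 9.99 in chow arrays 1 to 5. The high-fat arrays lay inside the range of the chow arrays, with chow array 1 highest of all 10 and chow array 2 lowest. The difference was 0.041 (SE 0.32, adjusted p = 0.949), and 0.21 (SE 0.081, adjusted p = 0.0859) without chow arrays 1 and 2. The smooth muscle and pericyte list had means of 7.35 to 8.24 in the high-fat arrays, 11.75 in chow array 1 and 9.62 to 10.28 in the other chow arrays, so chow array 1 was highest there too.

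The thrombospondins Thbs1 and Thbs2 showed no diet difference beyond the spread between chow mice, and that spread was their main feature. Thbs1 encodes thrombospondin-1, which activates latent TGF-beta and signals through the receptors CD36 and CD47. Its brightest probe set had levels of 8.44, 9.04, 8.95, 8.84 and 8.82 in high-fat arrays 1 to 5, against 7.09, 6.09, 8.67, 9.77 and 10.39 in chow arrays 1 to 5. All high-fat arrays lay between the chow arrays: chow arrays 1 and 2 were below them, and chow arrays 4 and 5 were above them. The range was 0.61 on the high-fat diet and 4.30 on chow, and the difference of 0.42 did not pass (SE 0.69, adjusted p = 0.734). The second Thbs1 probe set gave the same order of chow arrays, with a range of 0.28 on the high-fat diet and 3.04 on chow and a difference of 0.35 (SE 0.51, adjusted p = 0.694).

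Thbs2 encodes thrombospondin-2, an inhibitor of vessel growth that also shapes collagen fibrils in mice. Its brightest probe set had levels of 7.45, 8.26, 8.70, 8.24 and 8.50 in high-fat arrays 1 to 5, against 6.26, 5.92, 8.64, 9.44 and 9.75 in chow arrays 1 to 5. As with Thbs1, chow arrays 1 and 2 were the lowest of all 10 and chow arrays 4 and 5 the highest. The 3 Thbs2 probe sets differed by 0.23, -0.10 and -0.11, with adjusted p-values of 0.869, 0.938 and 0.903. With arrays centred on their medians all 3 were positive and none passed. Once chow arrays 1 and 2 were left out all 3 were lower on the high-fat diet, and 2 of them passed: -1.05 (SE 0.29, adjusted p = 0.0221), -1.23 (SE 0.35, adjusted p = 0.0238) and -0.84 (SE 0.36, adjusted p = 0.114). The 2 Thbs1 probe sets also turned there, to -0.79 (SE 0.31, adjusted p = 0.0850) and -0.53 (SE 0.23, adjusted p = 0.120). Chow arrays 1 and 2 were the lowest chow arrays for both genes, so leaving them out had to raise the chow means. No diet effect on Thbs1 or Thbs2 is read from that fit. In that fit 7 of the 16 probe sets passed, 5 higher (1 of Fn1, Tnc and Tnxb each and 2 of Sparc) and 2 lower (both Thbs2), where 14.3% of all probe sets were higher and 14.0% lower.

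Thbs4, a thrombospondin best known from tendon and muscle, was at the bottom of the measured range. Its deposited intensities were 1.87, 0.636, 14.8, 12.4 and 17.1 in high-fat arrays 1 to 5, against 11.7, 0.448, 0.597, 5.61 and 1.15 in chow arrays 1 to 5. High-fat array 2 and chow arrays 2 and 3 lay under the floor of 0.658, and the groups overlapped throughout. Its difference was 1.49 (SE 1.11, adjusted p = 0.408), or 0.36 on the log2(value + 16) scale, and no statement on its presence is made.

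The brightest probe sets of Tnc, Tnxb, Thbs1, Thbs2 and Sparc ranked the 5 chow arrays in 1 common order, from chow array 2 through 1, 3 and 4 to 5. The means of the adipocyte list and of the fibroblast and stromal progenitor list had that order too. Among the chow arrays Fn1, Thbs4 and Sparcl1 were highest in array 1, and all 9 genes were lowest, or at the floor, in array 2. The SD was larger on chow than on the high-fat diet for 14 of the 16 probe sets, as it was for 84.3% of all probe sets with a mean above the median. When the level of epididymis and testis transcripts entered the limma fit as a covariate, none of the 16 passed (6 had an unadjusted p under 0.05) and all 9 brightest probe sets turned negative, for example Fn1 at -0.20 (SE 0.55, adjusted p = 0.885), Tnc at -0.27 (SE 0.46, adjusted p = 0.802), Tnxb at -0.41 (SE 0.46, adjusted p = 0.662) and Thbs1 at -3.09 (SE 0.87, adjusted p = 0.0864). That covariate does not overlap between the diets, so in this fit diet and transcripts of other tissue cannot be told apart.

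**Figure D3:**
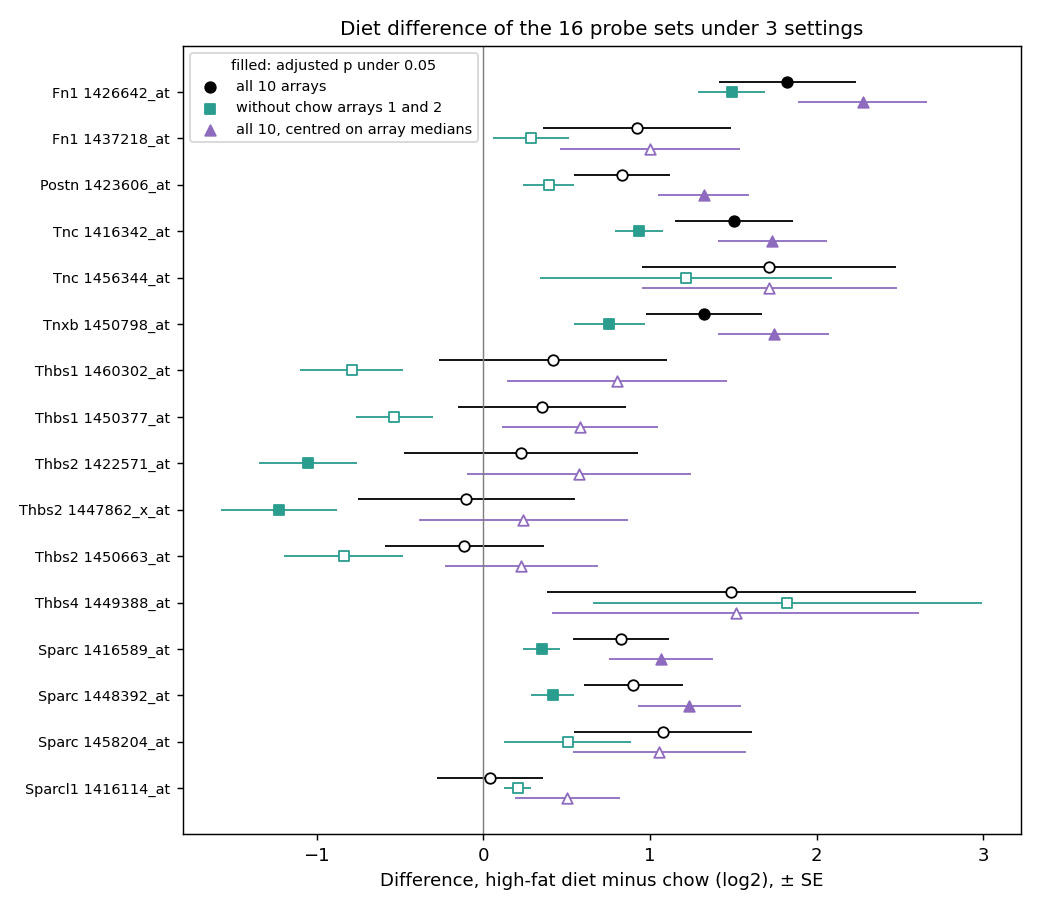
Difference between high-fat diet and chow (horizontal axis, log2, ± SE from limma) for each of the 16 probe sets, with all 10 arrays, without chow arrays 1 and 2, and with all 10 arrays centred on their medians. Filled symbols passed an adjusted p of 0.05: Fn1, Tnc and Tnxb pass in all 3 settings with their brightest probe set, and the Thbs1 and Thbs2 probe sets lie well below 0 where chow arrays 1 and 2 are left out and near or above 0 in the other settings.

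Named genes whose levels varied most like each member within the diet groups were found by Pearson's r of levels centred on each group's mean, over 10 arrays and 11939 others above the median level (11940 for Thbs4). The values are a description with no p, and since the chow arrays vary most they follow mainly those 5. For Sparc these were Gsto1 (r = 0.997), Ahnak (0.997) and the basement membrane gene Nid1 (0.996). For Tnc they were Car13 (0.997), Zfc3h1 (0.990) and Ccl9 (0.989), and for Tnxb Stard8 (0.987), Gas7 (0.987) and Clec3b (0.985). Thbs1 was most like Itsn1 (0.995), Svep1 (0.994), which encodes an extracellular matrix protein, and the collagen lysyl hydroxylase Plod1 (0.993), and Thbs2 most like Ell2 (0.994), Tmem106a (0.991) and Gyg (0.990). Fn1 was most like Abtb2 (0.987), Tubb6 (0.977) and Pld1 (0.969), and Postn most like Agpat4 (0.988), Itpripl2 (0.983) and Fam111a (0.980). Sparcl1 was most like the smooth muscle gene Smtn (0.990), Prkar2a (0.986) and Ttll7 (0.986), and Thbs4 most like Mfap3 (0.969), Panx1 (0.898) and Nup155 (0.890).

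Other matricellular genes moved in both directions. Of 23 measured, 4 rose, 2 fell and 17 did not pass, with a median difference of 0.19 against -0.037 over all named genes, of which 12.1% were called higher and 11.9% lower. Fbln2, a fibulin that binds fibronectin and basement membrane, rose by 2.13 (SE 0.40, adjusted p = 0.00346), and Comp, the cartilage thrombospondin, rose by 1.89 (SE 0.46, adjusted p = 0.0147). Ccn2, connective tissue growth factor, was 7.93 on the high-fat diet and 9.39 on chow and fell by 1.46 (SE 0.28, adjusted p = 0.00380). Spock1, a testican related to Sparc, fell by 3.86 (SE 0.93, adjusted p = 0.0146), with a mean of 1.42 on the high-fat diet, where it was dim, and 5.28 on chow; on the log2(value + 16) scale its difference was -1.66. Without chow arrays 1 and 2, 6 of the 23 rose and 7 fell, against 17.8% and 18.9% of all named genes.

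Receptors and assembly factors of fibronectin also split. Of 20 measured, 5 rose, 2 fell and 13 did not pass, where 12.1% of all named genes were called higher and 11.9% lower. The median difference was 0.29. Itga4, the integrin alpha 4 chain that leukocytes use to bind fibronectin, rose by 2.57 (SE 0.24, adjusted p = 4.65e-05), and Itgb5, a vitronectin receptor chain, rose by 1.29 (SE 0.22, adjusted p = 0.00213). Itga8, which pairs with beta 1 on smooth muscle, fell by 2.22 (SE 0.30, adjusted p = 0.000444), and Itga3, a laminin receptor chain of epithelia, fell by 1.45 (SE 0.18, adjusted p = 0.000279). Both fell as the smooth muscle and epithelial lists did, and the part of those cells was not tested. Itga5, the alpha chain of the classical fibronectin receptor, named here after its value was seen, was dim and did not pass, with a difference of 1.35 (SE 0.43, adjusted p = 0.0502) that was 0.80 on the log2(value + 16) scale and 0.97 (adjusted p = 0.0336) without chow arrays 1 and 2. Of the 20 genes, 9 rose and 4 fell in that smaller fit, against 17.8% and 18.9% of all named genes.

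None of 6 receptors of thrombospondins and Sparc passed in limma, and 2 had an unadjusted p under 0.05: Cacna2d1, a calcium channel subunit that binds thrombospondins, differed by -0.89 (SE 0.38, adjusted p = 0.138) and the scavenger receptor Cd36 by 0.74 (SE 0.33, adjusted p = 0.154). They are named because their p-values were the smallest of the 6, and without chow arrays 1 and 2 their differences were -0.24 (adjusted p = 0.294) and 0.16 (adjusted p = 0.215). Of 11 genes of the TGF-beta axis, which drives many matrix genes, 3 rose and 1 fell: Tgfb1 rose by 1.51 (SE 0.20, adjusted p = 0.000443), Tgfbr1 by 0.59 (SE 0.18, adjusted p = 0.0395) and Smad2 by 0.59 (SE 0.10, adjusted p = 0.00262), and Smad4 fell by 0.44 (SE 0.10, adjusted p = 0.0118). Their median difference was -0.16, beside the 12.1% and 11.9% of all named genes called higher and lower. In the fit that leaves out chow arrays 1 and 2, 3 rose and 5 fell, with a median of -0.33: Tgfb3, Tgfbr3, Smad3 and Smad7 fell there, named after their values were seen, against 17.8% and 18.9% of all named genes. Of 12 collagen genes, 10 rose and none fell, with a median of 1.74, including Col5a2 (2.42), Col15a1 (2.33), Col1a1 (2.26) and Col6a2 (2.09). The basement membrane collagens Col4a1 and Col4a2 did not pass, with differences of 0.37 and 0.78. Leaving out chow arrays 1 and 2, 10 collagens rose and none fell, the median was 1.31, and Col4a1 and Col4a2 turned to -0.20 and -0.031.

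**Figure D4:**
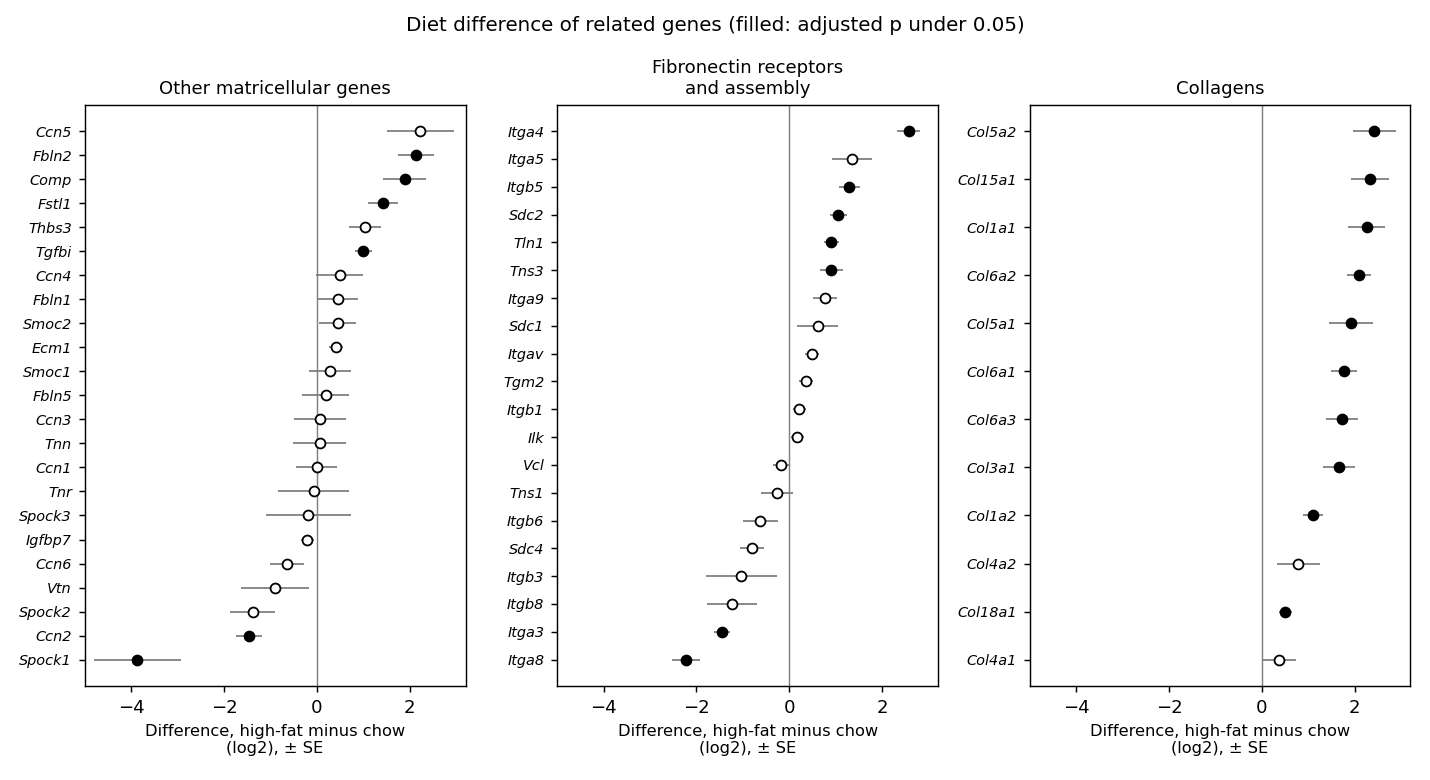
Difference between high-fat diet and chow (horizontal axis, log2, ± SE) for the measured genes of 3 lists, each by its brightest probe set; filled points passed an adjusted p of 0.05. Of the collagens 10 of 12 lie to the right with filled points, while the other matricellular genes (4 higher, 2 lower) and the fibronectin receptors (5 higher, 2 lower) lie on both sides of 0.

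Among the cell type marker lists, all 8 macrophage genes rose, among them Cd68 by 5.17, Tyrobp by 4.32, Adgre1 by 4.19 and Itgam by 3.85. Itgam was near the floor on chow, with means of 6.60 on the high-fat diet and 2.75 on chow, and differed by 2.23 on the log2(value + 16) scale, less than Lyz2 (3.06) and Fcgr1 (2.64). All 6 epithelial genes fell, among them Cldn7 at -7.82, which was at or near the floor on the high-fat diet (means of 0.81 on the high-fat diet and 8.63 on chow) and differed by -4.52 on the log2(value + 16) scale. Of 9 epididymis and testis genes 5 fell, all 9 had an unadjusted limma p under 0.05, and the median difference was -4.75. Of 8 smooth muscle and pericyte genes 6 had an unadjusted limma p under 0.05 and 5 fell, among them Cnn1 at -6.50, Actg2 at -4.60 and Myh11 at -3.60. Over all named genes 12.1% were called higher and 11.9% lower. Cnn1 was near the floor on the high-fat diet, with means of 2.34 on the high-fat diet and 8.84 on chow, and its difference on the log2(value + 16) scale, -4.35, was close to the -4.30 of Actg2. Of 7 fibroblast and stromal progenitor genes, Fap (2.07, SE 0.57) and Pi16 (1.70, SE 0.40) were called higher and none lower. Fap differed by 1.03 without chow arrays 1 and 2. An unadjusted limma p under 0.05 was found for 4 of the 7. Among these was Dpp4, named after its value was seen, with a difference of -1.08 (SE 0.40, adjusted p = 0.0857). None of 8 endothelial and 6 adipocyte genes passed in limma, nor had any an unadjusted p under 0.05; none of 4 nerve and Schwann genes passed, and 2 of them had an unadjusted p under 0.05. Of 5 mesothelial genes Upk1b fell (-2.25, SE 0.49). Of 6 platelet genes, cells that carry much thrombospondin-1, Pf4 rose by 2.07 (SE 0.29) and Gp9 fell by 2.41 (SE 0.65). Gp9 was near background on the high-fat diet, with means of 1.73 on the high-fat diet and 4.14 on chow; its difference was -0.83 on the log2(value + 16) scale, and its call was lost without chow arrays 1 and 2 (-1.89, adjusted p = 0.0886). Without chow arrays 1 and 2, all 8 endothelial and 2 of 6 adipocyte genes were lower on the high-fat diet, against 18.9% of all named genes. Those 2 arrays had the lowest means of both lists, so leaving them out had to raise the chow means of these lists. No diet effect on either list is read from that fit. In that fit 7 of 8 smooth muscle and pericyte and all 6 epithelial genes were lower too. So were 6 of 9 epididymis and testis and 2 of 5 mesothelial genes.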

How the data were processed

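The deposited table holds the authors' linear intensities, 1 value for each of 45101 probe sets and 10 arrays. Per the labels' protocols, every mouse gave its own biotin-labelled cRNA. How probes were summarised and scaled, and the genome build, is not stated in the labels used here. No detection calls were used; precision is limited by having 10 arrays.

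Intensities were floored at 0.658, their 5th percentile over the whole table, before the log2 step. Array medians then differed by 0.613, over a limit of 0.5, so arrays were quantile normalized. The 64 control probe sets were left out, leaving 45037 for limma 3.58.1 (R 4.3.3; lmFit, eBayes with a trend, Benjamini-Hochberg adjustment over all probe sets, threshold 0.05). For single probe sets a 2-sided exact permutation test used all 252 arrangements. The brightest probe set of a gene has the highest mean over all arrays. Symbols came from the platform annotation, updated through the RefSeq gene table; 34945 tested probe sets had 1 symbol.

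Named were all member probe sets, for each list at most 4 changed genes, taken by size of difference (where fewer than 2 changed, those of smallest p were added), and the 3 genes most like each member. The members and lists were chosen with earlier results of these data known. The fit was tested on simulated data, with 100 probe sets above the median level changed by 1 log2 unit and 100 by 2. It recovered 44% of the former and 85% of the latter, and 8 of its 137 calls were false. A probe set that did not pass may therefore still differ. The alternatives were other normalizations, floors, filters, variance priors, array weights, the replicate number as a block, other units of the fit, arrays left out, and a covariate for transcripts of other tissue. Replicate numbers are shared between the diets in the titles. Over all probe sets, the deviations of same-numbered arrays from their group means correlated between -0.012 and 0.0113. A correlation over all probe sets cannot exclude a pairing of the mice. With the replicate number as a block the SE was smaller for some members, 0.20 for Tnxb and 0.30 for the brightest Fn1 probe set. Whether the numbers pair the mice was not settled.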

Additional observations from a re-analysis of the deposited data

Results flagged for a closer look

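Among the 16 probe sets in each diet group, 3 of 32 sets of 5 arrays held an array whose gap to its nearest neighbour exceeded Dixon's critical value for 5 samples, as a share of the group's range; chance flags about 1 in 20. Chow array 2 stood apart for both Fn1 probe sets, with levels of 7.74 (gap 0.810 of the range) and 2.25 (0.804), below all other chow arrays. Without chow array 2 the brighter Fn1 probe set differed by 1.39 (adjusted p = 0.000725). High-fat array 5 stood apart for the dim Tnc probe set, at -0.21 (0.858), while in the brighter Tnc probe set it was the highest of the high-fat arrays at 7.19.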

How the results depend on the processing

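The count of changed probe sets, 8057 with all 10 arrays, was 4717 genes with 1 probe set per gene, 3868 genes with the mean of each gene's probe sets, 12723 without chow arrays 1 and 2, and 909 with the epididymis and testis covariate; leaving out 1 array gave 5915 (without high-fat array 5) to 10000 (without chow array 2). The count of member probe sets, 3 of 16, was 5 without normalization between arrays (7289 of 45037 over all), 6 with arrays centred on their medians (10322 of 45037), 6 of 13 among probe sets above the median mean (7657 of 22518), 7 without chow arrays 1 and 2 and 0 with the covariate; leaving out 1 array gave 2 to 6, with 5 without chow array 4 and 6 without chow array 5. With the replicate number as a block, Postn passed at a difference of 0.83 (adjusted p = 0.0490) and no other brightest probe set changed its call. Postn also passed without normalization (1.19), with median centring (1.32) and among probe sets above the median mean (0.83), and Sparc with median centring (1.07), among probe sets above the median mean (0.83) and without chow arrays 1 and 2 (0.35). Median centring moved the median of all probe sets to 0.18 (0.013 with quantile normalization) and the share of calls that were higher to 76.3% (55.3% with quantile normalization, 66.3% with none and 74.6% with the covariate). Fn1 lost its call with the mean of its 2 probe sets (1.37, adjusted p = 0.0617). Array weights turned Thbs1 (-0.32) and Thbs2 (-0.53), and leaving out chow arrays 1 and 2 turned them to -0.79 and -1.05. With the covariate the differences were -0.20 for Fn1, -0.46 for Postn, -0.27 for Tnc, -0.41 for Tnxb, -3.09 for Thbs1, -3.03 for Thbs2, -1.535 for Thbs4, -0.57 for Sparc and -0.53 for Sparcl1. Leaving out 1 array in turn gave 1.39 to 2.01 for Fn1, 1.16 to 1.71 for Tnc, 1.07 to 1.55 for Tnxb, 0.57 to 0.95 for Postn, 0.55 to 0.98 for Sparc, -0.16 to 0.91 for Thbs1, -0.30 to 0.66 for Thbs2 and -0.17 to 0.38 for Sparcl1; Fn1 and Tnc passed in all 10 of these fits, Tnxb in 7, Postn only without chow array 5 and Sparc without chow arrays 4 or 5. The cause of these shifts was not tested.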
